A study of Mus musculus with 6 samples.

Results

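Double-strand break repair and Fanconi genes were examined as a set of 51 named genes in splenic germinal centre B cells of the mouse. They were found by symbol among the 55401 genes of the deposited count tables, each symbol matched 1 gene, and all 51 passed the filter on low counts that left 11296 genes for testing. The set covers the damage kinases, the proteins that mark and trim a broken end, homologous recombination, the Fanconi crosslink pathway, classical end joining, and alternative end joining with single-strand repair.

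The cells came from wild-type C57BL/6 mice that had been given sheep red blood cells by the intraperitoneal route, were challenged with them on day 5 and were analysed on day 12. All mice shared strain, genotype and immunization. Sorted germinal centre B cells were divided into subsets named DN and DP, with 3 libraries each, and the labels used here do not spell out the sorting markers behind these names or the age and sex of the mice. Both subsets were sorted from each of 3 mice according to the series, yet the labels do not say which mouse a library came from, so the p-values below describe only how far these libraries scatter, and that scatter may be technical. Counts assigned to genes ran from 8904415 to 11897360 per DN library and from 17509384 to 20538024 per DP library. Levels are CPM, read counts relative to the library size after TMM scaling, with mean ± SD over n = 3 libraries. Each change is the log2 ratio of DP to DN ± its standard error in edgeR's quasi-likelihood test, and a gene was called at a Benjamini-Hochberg adjusted p under 0.05 over all tested genes. RNA was taken from pools of cells, so fewer cells of a type and less RNA per cell cannot be told apart.

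A double-strand break can be sealed directly by end joining or copied from the sister chromatid by homologous recombination. In classical end joining the Ku dimer caps the end, recruits the kinase encoded by Prkdc and the nuclease Artemis, and the XRCC4 and ligase IV complex seals the gap. Recombination begins with resection of the end and needs the BRCA proteins to load a recombinase on single-stranded DNA, which restricts it largely to cells that have replicated. Germinal centre B cells divide fast and mutate their immunoglobulin genes with a cytidine deaminase, and class switching joins deaminase-induced breaks by end joining.

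The Ku subunits rose together, the ligase genes Lig3 and Lig4 moved in opposite directions, and Hmces had the largest change. Brca1 starts 194 bases from a neighbour on the opposite strand that fell too. The promoters of these 6 genes, on which the results turn, are shown. Each is the 250 bases before the RefSeq start, 5′ to 3′ on the gene's strand, in the RefSeq build GRCm38.p6. Capitals mark 3 motifs searched on both strands: the E2F-type motif TTTNNCGC with C or G at both N, the E-box CACGTG, and CCAAT.
Xrcc5, chr1:72307171-72307420, plus strand: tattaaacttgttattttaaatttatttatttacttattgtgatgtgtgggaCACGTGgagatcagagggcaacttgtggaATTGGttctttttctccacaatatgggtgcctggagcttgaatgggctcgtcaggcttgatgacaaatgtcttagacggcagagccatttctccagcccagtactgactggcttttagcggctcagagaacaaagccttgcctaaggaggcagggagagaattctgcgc
Xrcc6, chr15:82016119-82016368, plus strand: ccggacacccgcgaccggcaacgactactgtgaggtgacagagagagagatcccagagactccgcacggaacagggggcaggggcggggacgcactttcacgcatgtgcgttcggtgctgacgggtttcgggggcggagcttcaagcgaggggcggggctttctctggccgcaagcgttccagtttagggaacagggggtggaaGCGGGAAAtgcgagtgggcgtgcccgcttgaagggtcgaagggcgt
Lig4, chr8:9977681-9977930, minus strand: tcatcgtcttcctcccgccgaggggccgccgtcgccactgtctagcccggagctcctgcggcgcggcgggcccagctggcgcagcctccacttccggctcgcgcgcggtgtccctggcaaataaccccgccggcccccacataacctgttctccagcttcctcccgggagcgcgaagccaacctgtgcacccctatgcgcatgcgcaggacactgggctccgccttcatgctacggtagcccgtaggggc
Lig3, chr11:82780859-82781108, plus strand: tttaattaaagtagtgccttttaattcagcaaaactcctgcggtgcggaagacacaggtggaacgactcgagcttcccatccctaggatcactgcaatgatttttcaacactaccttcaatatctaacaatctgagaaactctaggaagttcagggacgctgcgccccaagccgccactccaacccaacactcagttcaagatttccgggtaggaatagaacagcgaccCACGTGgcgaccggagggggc
Hmces, chr6:87913726-87913975, plus strand: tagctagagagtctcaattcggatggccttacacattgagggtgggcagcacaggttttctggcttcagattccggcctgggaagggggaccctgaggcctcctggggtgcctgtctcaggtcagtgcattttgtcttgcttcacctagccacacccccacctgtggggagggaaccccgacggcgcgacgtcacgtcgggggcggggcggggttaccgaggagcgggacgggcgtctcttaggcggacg
Brca1, chr11:101551956-101552205, minus strand: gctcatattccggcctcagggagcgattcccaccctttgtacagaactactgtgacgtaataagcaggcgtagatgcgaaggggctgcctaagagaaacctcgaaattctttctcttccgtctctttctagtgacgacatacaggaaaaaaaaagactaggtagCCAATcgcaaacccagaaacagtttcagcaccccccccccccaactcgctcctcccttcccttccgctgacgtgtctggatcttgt

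In these 250 bases Xrcc5 held an E-box that begins 198 bases before the start and a CCAAT motif at 169 bases, and Xrcc6 held an E2F-type motif at 46 bases. In the window that reaches 50 bases past the start, Xrcc6 held a CCAAT motif as well. The RefSeq start used for Xrcc6 lies 28534 bases from the outermost start that GENCODE annotates for the gene. Lig3 held an E-box at 21 bases and Brca1 a CCAAT motif at 86 bases, while none of the 3 motifs lay in these windows of Lig4 and Hmces. RefSeq promoters of 300 bases, reaching 50 bases past the start, were matched for 42 of the 51 genes. An E2F-type motif lay in 7 of the 42 (16.7%), against 4.55% of 8436 tested genes with 1 promoter each. CACGTG lay in 6 of 42 (14.3%, against 10.9%) and CCAAT in 21 of 42 (50%, against 39.9%). By direction, the E2F-type motif lay in 3 of 17 promoters of genes called higher in DP and in 3 of 15 of genes called lower, and the E-box in 4 of 17 and 1 of 15. These matches are letters in a window and describe no binding.

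Of the 51 genes, 21 rose in DP and 17 fell, while 13 were not called. Across all 11296 tested genes 75.9% were called, 38.3% higher and 37.6% lower, so that the 74.5% called among the repair genes lay close to the background. Most changes were small. Of the 38 called genes, 31 differed by less than 2-fold, and the median size of change was 0.41 on the log2 scale, against 0.53 over all tested genes. At least 2-fold higher in DP were Lig3, Atr and Xrcc5 (3 of 51, against 12.3% of all tested genes), and at least 2-fold lower were Hmces, Lig4, Fancm and Xrcc1 (4 of 51, against 12.8%). For 35 genes the ranges of the subsets did not overlap, 19 with DP above and 16 with DP below (68.6%, against 77.0% of all tested genes). The median change of the set was 0.03, beside 0.01 over all tested genes. With library totals in place of TMM factors the median of all tested genes moved by -0.20, and the share of called repair genes that were higher went from 55.3% to 39.0% (from 50.5% to 38.0% over all called genes).

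**Figure D1:**
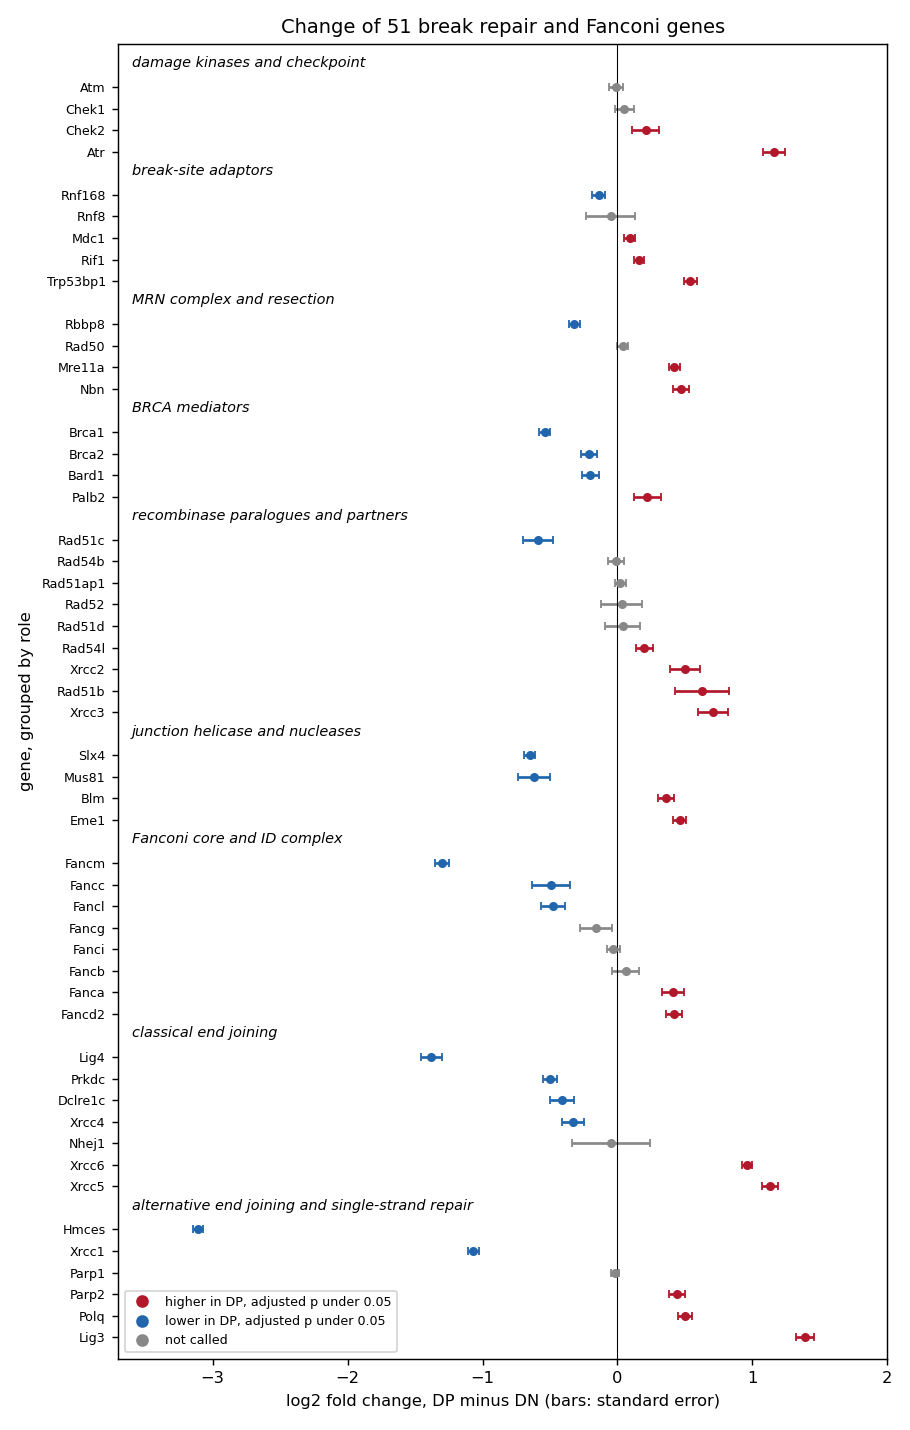
Log2 fold change of DP against DN (x axis) for the 51 genes (y axis, grouped by role), with standard errors as bars and colour for the call by edgeR. Most points lie within 1 unit of 0, Hmces stands at -3.11, and genes of both directions stand in every role group except the damage kinases, where none was called lower.

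Classical end joining parted within itself: both Ku subunits rose about 2-fold while the ligase, the kinase and the nuclease were lower in DP. Of its 7 genes, 2 rose, 4 fell and 1 was not called (85.7% called, against 75.9% of all tested genes). Xrcc5, which encodes the larger Ku subunit, was at 32.5, 34.9 and 33.2 CPM in the DN libraries and at 73.1, 71.9 and 74.7 CPM in the DP libraries. The gene rose by 1.13 ± 0.06, or 2.19-fold (adjusted p = 6.37e-26), with no overlap between groups. Xrcc6, its dimer partner, was at 97.3, 99.6 and 96.1 CPM in DN and at 188, 192 and 189 CPM in DP, a rise of 0.96 ± 0.04, or 1.94-fold (adjusted p = 3.49e-29). All DP libraries were again far above all DN libraries.

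Lig4 encodes the ligase dedicated to this pathway. Its levels were 43.3, 44.8 and 38.4 CPM in DN and 17.5, 16.2 and 15 CPM in DP, and it fell by 1.38 ± 0.08 (2.60-fold lower, adjusted p = 4.81e-24). Every DP library lay far below every DN library. Prkdc, the catalytic subunit of the DNA-dependent kinase, went from 74.6, 70.7 and 72.2 CPM to 52.0, 52.1 and 49.9 CPM and fell by 0.50 ± 0.05 (adjusted p = 9.60e-13). Dclre1c, which encodes the end-trimming nuclease Artemis, fell by 0.41 ± 0.09 from 21.4 ± 1.18 to 16.3 ± 1.06 CPM (adjusted p = 4.79e-05). Xrcc4, the scaffold that holds ligase IV, fell by 0.33 ± 0.08 (adjusted p = 5.44e-04), but its groups overlapped, with 26.1, 28.9 and 33.9 CPM in DN and 26.2, 22.7 and 21.4 CPM in DP. Nhej1, which encodes the bridging factor XLF, was barely present at 1.63 ± 0.502 in DN and 1.55 ± 0.136 CPM in DP, and its change of -0.05 had a 95% interval of -0.61 to 0.52, too wide to place it.

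**Figure D2:**
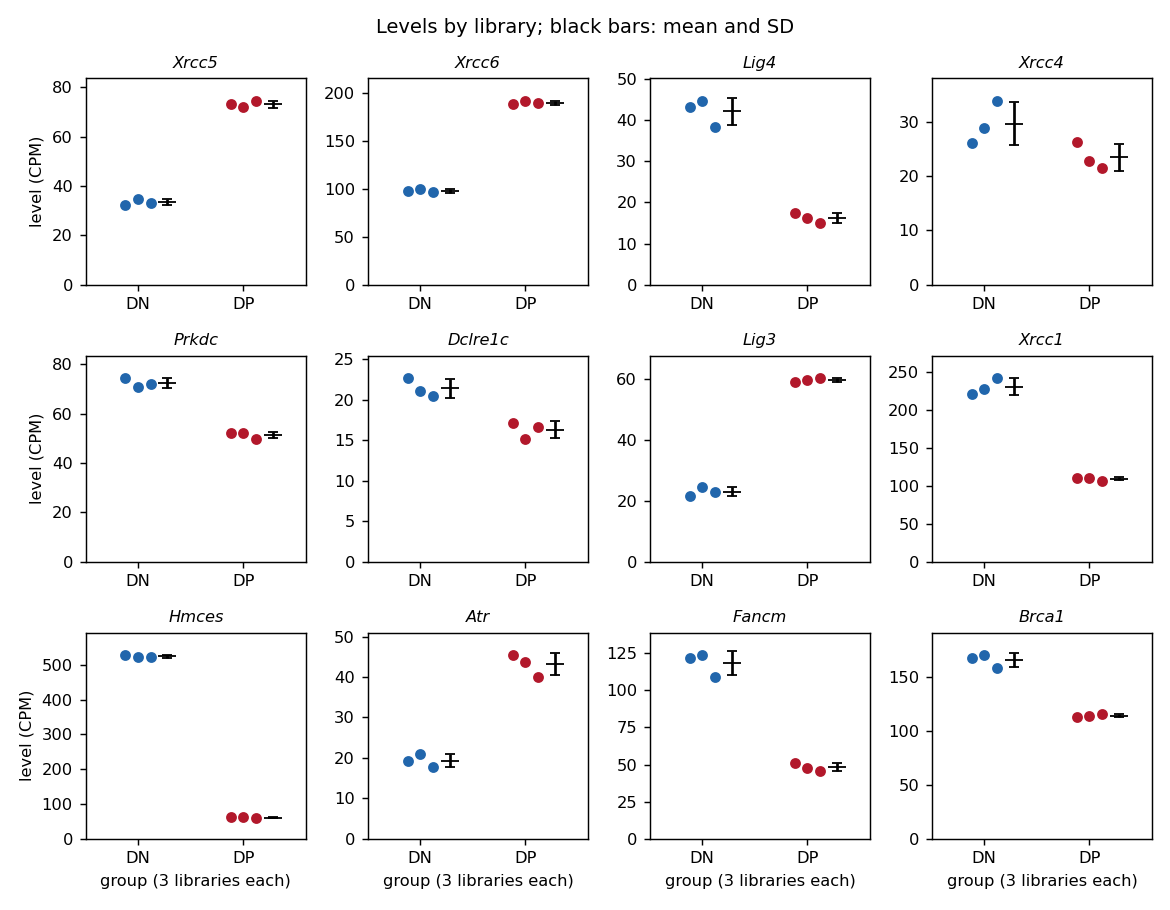
Levels in CPM (y axes, each from 0) of 12 genes in the 3 DN and 3 DP libraries (points), with the mean and SD as black bars. Xrcc5, Xrcc6, Lig3 and Atr are higher in every DP library, Lig4, Prkdc, Dclre1c, Xrcc1, Hmces, Fancm and Brca1 are lower in every DP library, and only the Xrcc4 groups overlap.

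Homologous recombination genes moved in both directions. Of the 15 genes grouped here, from end resection to the Bloom helicase, 6 rose, 5 fell and 4 were not called (73.3% called, against 75.9% of all tested genes). None of the 15 changed by as much as 2-fold, with changes from -0.59 to 0.71. Their median change was 0.03 and that of the 7 end joining genes -0.33, beside 0.01 over all tested genes. The median size of change was 0.22 for recombination and 0.50 for end joining. Taken library by library, the recombination median minus the end joining median, on log2 CPM centred on the mean of the 6 libraries, was -0.07, -0.25 and -0.09 in DN and 0.04, 0.17 and 0.21 in DP. Each arm alone overlapped between the subsets. The end joining median was -0.01 in DN1 and 0.00 in DP1, and the recombination median was 0.04 in DN3 and -0.03 in DP2. The end joining median is not typical of its arm, because 2 of 7 genes lie far above it. Summed levels show this: the 7 end joining genes added up to 295 to 302 CPM in DN and 369 to 375 CPM in DP, led by Xrcc6, while the 15 recombination genes added up to 759 to 772 CPM in DN and 694 to 711 CPM in DP. On this scale all tested genes together also summed higher in DP, at 933546 to 935102 CPM in DN and 1062733 to 1079967 CPM in DP. No test was made of the arms as lists.

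**Figure D3:**
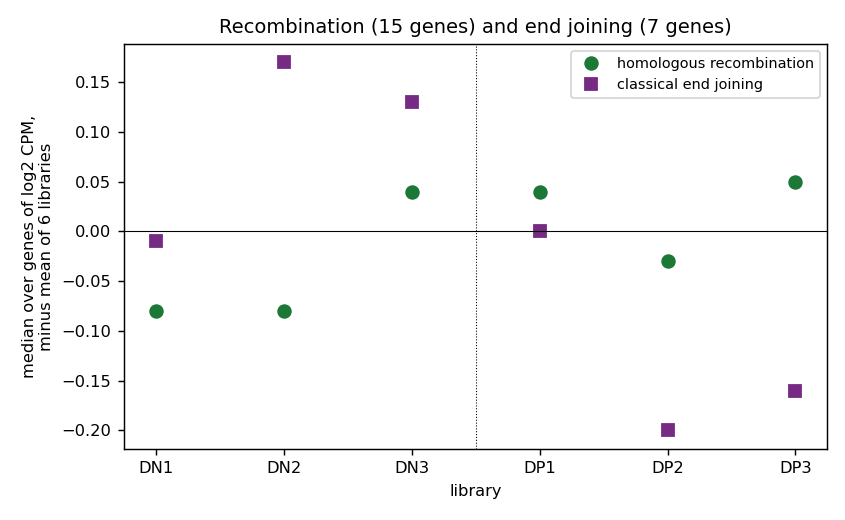
For each library (x axis), the median over genes of log2 CPM minus the gene's mean of the 6 libraries (y axis), for 15 homologous recombination genes (circles) and 7 classical end joining genes (squares). End joining lies above recombination in the 3 DN libraries and below it in the 3 DP libraries, and the gaps are small, from 0.04 to 0.25.

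The BRCA mediators were mostly lower in DP, with 3 of 4 called lower and 1 higher. Over all tested genes 37.6% were called lower and 38.3% higher, and 4 genes are too few to set against these shares. Brca1, which promotes resection and recruits the other mediators, was at 168, 171 and 159 CPM in DN and at 113, 114 and 116 CPM in DP. It fell by 0.54 ± 0.04 (1.45-fold lower, adjusted p = 9.75e-18), with every DP library below every DN library. Bard1, its dimer partner, went from 50, 48.3 and 46.4 CPM to 41.7, 40.9 and 43.6 CPM and fell by 0.20 ± 0.06 (adjusted p = 0.00225). In both genes the groups were apart. Brca2, which loads the recombinase, went from 77.7, 67.0 and 68.7 CPM to 66.3, 62.2 and 56.7 CPM and fell by 0.21 ± 0.06 (adjusted p = 9.10e-04), a change that was 0.00 once trends with GC content and length were removed. Palb2, the bridge between BRCA1 and BRCA2, went from 14.3 ± 1.4 to 16.5 ± 0.785 CPM (0.22 ± 0.10, adjusted p = 0.0347), and its call was lost without DN replicate 1 (0.15) or DP replicate 2 (0.19). Rbbp8, which encodes the resection factor CtIP, fell by 0.32 ± 0.04 from 144, 137 and 138 CPM to 118, 107 and 112 CPM (adjusted p = 3.36e-09), with no overlap.

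Among the recombinase paralogues Rad51c fell while Xrcc3, Rad51b and Xrcc2 rose. Rad51c, which takes part in both paralogue complexes, was at 13.7, 15.6 and 12.1 CPM in DN and at 9.38, 8.49 and 9.71 CPM in DP and fell by 0.59 ± 0.11 (adjusted p = 5.36e-06). Its direct partner in the smaller complex, Xrcc3, rose by 0.71 ± 0.11, from 10.1, 7.98 and 8.21 CPM to 13.6, 14.0 and 15.9 CPM (adjusted p = 1.54e-07). Neither gene's groups overlapped. Rad51b rose by 0.63 ± 0.20 from only 2.73 ± 0.430 to 4.30 ± 0.0760 CPM (adjusted p = 0.00315), and Xrcc2 by 0.50 ± 0.11 from 10.5, 10.8 and 9.03 CPM to 14.6, 13.4 and 15 CPM (adjusted p = 4.97e-05). Rad51d was at 8.91 ± 1.63 and 9.17 ± 1.09 CPM and was not called.

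Of the 4 accessory factors of strand exchange only Rad54l was called. Rad54l, a motor that remodels the joint molecule, rose by 0.20 ± 0.06 (adjusted p = 0.00118), a change that was 0.00 and not called with library totals alone. Rad54l shares 15.4% of its exon bases with Lrrc41 on the opposite strand. Lrrc41 rose by 1.02 ± 0.18, from 2.90 ± 0.491 to 5.84 ± 0.127 CPM. Rad54b, the paralogue of Rad54l, had a change of -0.01 with a 95% interval of -0.12 to 0.11, Rad51ap1 of 0.02 (-0.06 to 0.11) and Rad52 of 0.03 (-0.26 to 0.33). With library totals alone Rad54b was called lower (-0.20). Rad51ap1 was the most abundant of these 4, at 121 ± 4.36 in DN and 123 ± 5.14 CPM in DP. Rad54b shares 35.8% of its exon bases with Fsbp on the same strand, so its value is uncertain.

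Enzymes that take joint molecules apart split by 2 and 2. All 4 were called, as were 75.9% of all tested genes. Slx4, the scaffold for structure-specific nucleases, fell from 178, 177 and 184 CPM to 118, 112 and 114 CPM (-0.65 ± 0.04, adjusted p = 1.34e-21). Mus81, a nuclease subunit that binds it, fell by 0.62 ± 0.12 from 14.1 ± 2.25 to 9.31 ± 1.05 CPM (adjusted p = 3.85e-06). Eme1, the partner subunit of MUS81, rose by 0.46 ± 0.05 from 50.1, 49.0 and 51.2 CPM to 68.1, 69.5 and 69.0 CPM (adjusted p = 2.67e-11). Blm, the helicase that dissolves double junctions, rose by 0.36 ± 0.06 from 48.8, 51.8 and 46.5 CPM to 60.8, 64.5 and 63.5 CPM (adjusted p = 6.25e-08). In all 4 genes the groups did not overlap, which also held for 77.0% of all tested genes.

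Alternative end joining and single-strand repair held the largest changes of the set. Hmces, whose product shields abasic sites in single-stranded DNA by a covalent link and has also been tied to end joining in B cells, was at 529, 522 and 522 CPM in DN and at 61.5, 61.7 and 59.3 CPM in DP. It fell by 3.11 ± 0.04, or 8.62-fold (adjusted p = 2.98e-55). Per kilobase of exon it was the most abundant of the 51 genes in DN, at 215 ± 1.73 CPM per kb, and ninth in DP, at 24.9 ± 0.562 CPM per kb. In the mm10 build Hmces (ENSMUSG00000030060.14) lies on chromosome 6 from 87913935 to 87936629 on the plus strand.

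Lig3 and Xrcc1 encode a ligase and the scaffold that binds it in single-strand break repair, and they moved in opposite directions. Lig3 rose from 21.5, 24.6 and 23.0 CPM in DN to 59.3, 59.9 and 60.6 CPM in DP (1.39 ± 0.07, 2.62-fold, adjusted p = 1.75e-27). Xrcc1 fell from 221, 228 and 243 CPM to 111, 111 and 107 CPM (-1.07 ± 0.04, 2.10-fold lower, adjusted p = 5.41e-32). Both had wide gaps between groups. Lig3 shares 25.1% of its exon bases with Rffl on the opposite strand, which was at 2.00 ± 0.667 in DN and 2.06 ± 0.640 CPM in DP, far below Lig3 itself.

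Polq encodes polymerase theta, which anneals short homologies in alternative end joining. It rose from 88.1, 89.4 and 86.8 CPM to 127, 123 and 122 CPM (0.50 ± 0.05, adjusted p = 3.85e-15). Parp2 rose by 0.44 ± 0.06 from 49.0 ± 2.32 to 66.5 ± 3.56 CPM (adjusted p = 5.39e-10). The main nick sensor of the cell, Parp1, was the second most abundant gene of the set per kilobase in DN and the first in DP, at 174 ± 6.73 and 172 ± 1.64 CPM per kb. Its change of -0.02 had a 95% interval of -0.08 to 0.05, with overlapping groups, and it was called lower with library totals alone (-0.21) and with trends in GC content and length removed (-0.10).

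The damage kinases and the proteins that mark the break differed by gene. Atr, the kinase that answers to single-stranded DNA and stalled forks, rose from 19.2, 21.0 and 17.8 CPM to 45.5, 43.8 and 40.1 CPM (1.16 ± 0.08, 2.24-fold, adjusted p = 4.47e-21). All DP libraries were more than double the DN mean. Atm, the kinase that answers to double-strand breaks, overlapped between groups at means of 126 and 126 CPM (SD 10 and 5.32), with a change of -0.01 (95% interval -0.10 to 0.08). It was not called here but was -0.20 with library totals alone and 0.15 with GC and length trends removed, both called. Chek1, the effector kinase of ATR, was at 36.3, 36.4 and 31.5 CPM in DN and 36.0, 34.4 and 38.2 CPM in DP and was not called (0.05 ± 0.07), though it was called higher with GC and length trends removed (0.19). Chek2, the effector kinase of ATM, went from 16.7, 15 and 13.9 CPM to 16.3, 17.2 and 19.6 CPM and passed only narrowly (0.21 ± 0.10, adjusted p = 0.0468, overlapping groups) and lost its call without DN replicate 2 (0.20), DN replicate 3 (0.15) or DP replicate 3 (0.14).

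Trp53bp1, which protects ends from resection and so favours end joining, rose by 0.54 ± 0.05 from 68.4, 65.4 and 64.6 CPM to 94.3, 97.3 and 97.9 CPM (adjusted p = 2.60e-15). It shares 15% of its exon bases with Tubgcp4 on the opposite strand, which went the other way (-0.35 ± 0.07). Its effector Rif1 rose by 0.16 ± 0.04 from 293, 254 and 259 CPM to 321, 291 and 292 CPM (adjusted p = 0.00151) with overlapping groups. The ubiquitin ligase gene Rnf168, which makes the chromatin mark read by Trp53bp1's product, fell by 0.14 ± 0.05 from 102, 110 and 104 CPM to 98.0, 92.0 and 96.2 CPM (adjusted p = 0.00518), and its call was lost without DN replicate 2 (-0.10) or DP replicate 2 (-0.11). The adaptor Mdc1 rose by 0.09 ± 0.04 (adjusted p = 0.0378), a call lost without DN replicate 2 (0.05) or DP replicate 3 (0.09). Rnf8, the ligase upstream of Rnf168, was at 4.35 ± 0.802 and 4.31 ± 0.751 CPM and was not called. Rif1 and Mdc1 turned negative with library totals alone, at -0.04 and -0.11.

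In the MRN complex, which senses and first trims the end, the nuclease and the signalling subunit rose without the third subunit. Mre11a rose from 103, 106 and 110 CPM to 144, 141 and 143 CPM (0.42 ± 0.04, adjusted p = 2.71e-13) and Nbn from 41.3, 41.6 and 43.1 CPM to 57.7, 58.0 and 58.7 CPM (0.47 ± 0.06, adjusted p = 9.91e-11). Neither pair of groups overlapped. Rad50, the tethering subunit, was by far the most abundant at 373 ± 10.4 and 384 ± 12.6 CPM, its groups overlapped, and its change of 0.04 had a 95% interval of -0.03 to 0.11. Rad50 was called lower with library totals alone (-0.16) and higher with no filter on low counts (0.11).

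The Fanconi pathway unhooks crosslinks between DNA strands: FANCM helps bring the core complex to the lesion, the core ligase FANCL acts on the FANCD2 and FANCI pair, and the modified pair recruits nucleases. Of its 8 genes here, 2 rose, 3 fell and 3 were not called (62.5% called, against 75.9% of all tested genes). Fancm was at 122, 124 and 109 CPM in DN and at 51, 47.7 and 46.0 CPM in DP and fell by 1.30 ± 0.05 (2.45-fold lower, adjusted p = 3.65e-31). Fancl fell by 0.48 ± 0.09 from 22.1, 25.0 and 22.8 CPM to 16.9, 16.2 and 17.0 CPM (adjusted p = 1.66e-06), and Fancc, another core subunit, by 0.49 ± 0.14 from 8.58 ± 0.591 to 6.07 ± 1.00 CPM (adjusted p = 0.00136). These 3 had no overlap between groups, like 77.0% of all tested genes. Fancd2 rose by 0.42 ± 0.06 from 33.2, 33.0 and 33.6 CPM to 43.2, 44.8 and 45.1 CPM (adjusted p = 4.67e-08), while Fanci was at 87.1 ± 1.69 and 85.3 ± 1.49 CPM and was not called (-0.03, 95% interval -0.12 to 0.06). Fanca rose by 0.41 ± 0.08 (adjusted p = 1.36e-05), Fancb was not called (0.06 ± 0.10) and neither was Fancg (-0.16 ± 0.12). Fancg was called lower with library totals alone (-0.36) and with GC and length trends removed (-0.29), and Fanci with library totals alone (-0.22). Part of the exon bases of Fanca, Fancl, Fancc and Fanci lies opposite another gene, from 10.5% to 18.6%.

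Ratios of partner genes within a library do not depend on the scaling between libraries, so 12 pairs were compared this way, on levels per kilobase of exon. The pairs were chosen after their changes were seen. The Lig3 to Xrcc1 ratio moved most, from 0.0776, 0.0862 and 0.0759 in DN to 0.428, 0.432 and 0.454 in DP, a 5.49-fold increase. Next came Rad51c to Xrcc3 (1.00 ± 0.200 in DN and 0.399 ± 0.0281 in DP), Mus81 to Eme1 (0.218 ± 0.0304 and 0.105 ± 0.0127) and Lig4 to Xrcc4 (1.17 ± 0.225 and 0.563 ± 0.0199), each lower in all 3 DP libraries than in any DN library. The Mus81 to Eme1 ratio carries the uncertainty of the Eme1 value. The Ku subunits stayed closest together, with an Xrcc6 to Xrcc5 ratio of 1.67 ± 0.0409 in DN and 1.48 ± 0.0405 in DP. Brca1 to Bard1 went from 2.28 ± 0.0597 to 1.80 ± 0.0378, Fancd2 to Fanci from 0.278 ± 0.00620 to 0.378 ± 0.0147, and Nbn to Rad50 from 0.239 ± 0.0121 to 0.322 ± 0.0109. In all 12 pairs the groups did not overlap, which also held for 77.0% of single tested genes. Each pair had an exact two-sided permutation p of 0.1 (0.1 after adjustment over the pairs), the smallest that 3 against 3 libraries can give. Because the pairs were picked with their changes known, this p is no test of them and the ratios are a description.

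**Figure D4:**
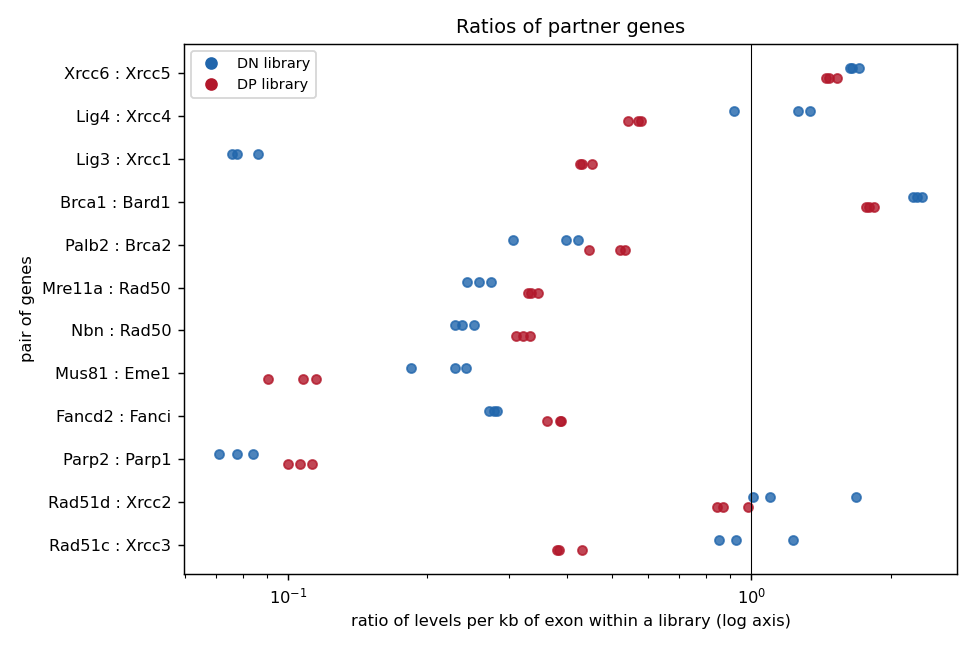
Ratio of the levels per kb of exon of 2 partner genes within a library (x axis, log scale) for 12 pairs (y axis), with 1 point per DN or DP library. The 3 DN and 3 DP points of each pair are separate, most widely for Lig3 to Xrcc1 (0.0799 and 0.438 on average).

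Many repair genes start close to a gene on the opposite strand, and such neighbours can share a promoter region, which was not tested here. Within 1000 bases of the outermost start in GENCODE, 18 of the 51 genes had a head-to-head protein-coding neighbour, and in 16 pairs the neighbour was tested as well. For Xrcc6, Fancc and Slx4 that start lies 28534, 65533 and 2092 bases from the RefSeq start, where neighbours were not searched for. Both genes were called in 7 pairs, 5 in the same direction and 2 in opposite directions, 1 of the 2 was called in 8 pairs, and in 1 pair neither was. Of all tested genes 75.9% were called, 38.3% higher and 37.6% lower, so many unrelated pairs would also have both genes called. Head-to-head pairs of other genes were not counted, so these counts do not show that neighbours move together. Nbr1, an autophagy receptor gene whose start lies 194 bases from that of Brca1, fell by 0.96 ± 0.06 from 60.7 ± 1.53 to 31.2 ± 1.79 CPM (adjusted p = 1.24e-21). Ankrd49, next to Mre11a, rose by 0.94 ± 0.07 from 23.7 ± 0.908 to 45.6 ± 1.21 CPM, and shares 2.60% of the Mre11a exon bases. Abhd13, 21 bases from Lig4, fell by only 0.23 ± 0.09 (adjusted p = 0.0231) beside the 1.38 of Lig4. Mcm4, a subunit of the replicative helicase 466 bases from Prkdc, was slightly higher in DP (0.10 ± 0.04, 255 ± 7.94 and 274 ± 4.60 CPM, adjusted p = 0.0127) while Prkdc fell. Npat, the histone gene activator 307 bases from Atm, was not called (-0.04 ± 0.06), and neither was Atm.

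**Figure D5:**
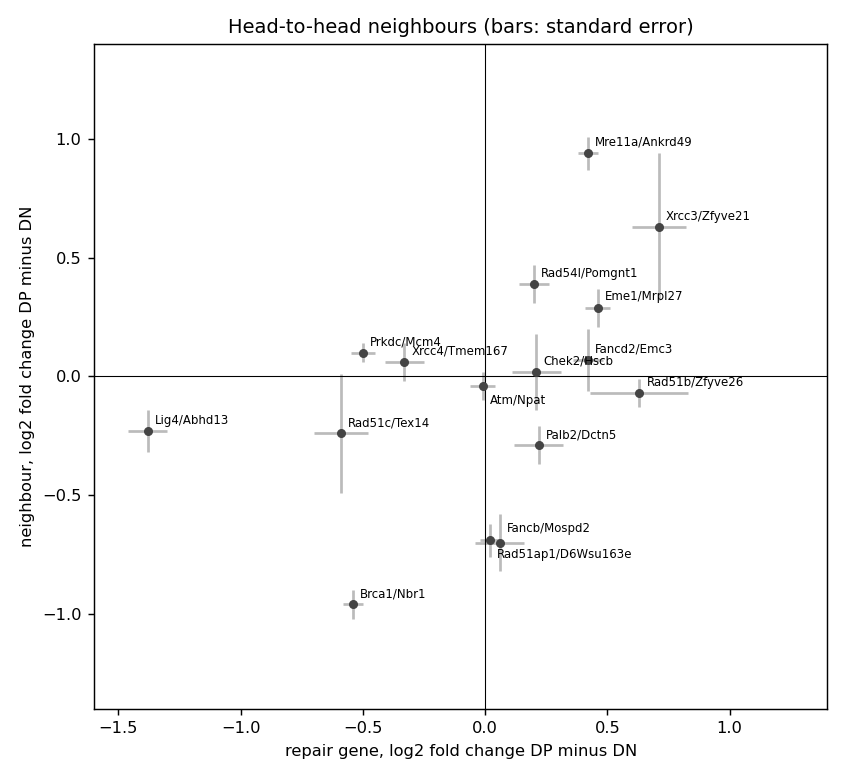
Log2 fold change of DP against DN of 16 repair genes (x axis) and of their head-to-head neighbours (y axis), with standard errors as bars. Brca1 with Nbr1 and Mre11a with Ankrd49 lie in the same direction for both genes, whereas Prkdc with Mcm4 and Palb2 with Dctn5 have opposite signs.

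Other genes of these pathways, outside the set, also moved in both directions. Of 88 such genes, 85 were tested, with 36 called higher, 31 lower and a median change of 0.04. That is 78.8% called, close to the 75.9% of all tested genes. Of the 85, 3 were at least 2-fold higher (against 12.3% of all tested genes) and 4 at least 2-fold lower (against 12.8%). In the lists that follow, 73.9% to 86.7% of tested genes were called. Among 25 checkpoint and break-site factors, 6 of 23 tested rose and 11 fell. Of these H2ax, the histone variant phosphorylated around a break, fell by 1.30 ± 0.06 from 169, 184 and 205 CPM to 72.8, 81.0 and 72.0 CPM, and Hus1, a clamp subunit in ATR activation, rose by 0.86 ± 0.11. Of 29 recombination and resection genes 13 rose and 10 fell. The resection nuclease gene Exo1 rose by 0.81 ± 0.06 from 40.1 to 70.1 CPM, and the helicase gene Helq fell by 1.19 ± 0.05 from 145 to 63.5 CPM.

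Of 18 further Fanconi and crosslink genes 10 rose and 4 fell. Faap24, a partner of FANCM, rose by 0.75 ± 0.07 while Fancm itself fell. Rev3l and Rev1, which encode translesion polymerases, fell by 1.56 ± 0.05 and 0.75 ± 0.05. Among 15 tested genes of end joining and single-strand repair 7 rose and 6 fell. Apex1, the abasic site endonuclease, rose by 2.22 ± 0.05 from 37.3, 40.9 and 38.5 CPM to 181, 191 and 171 CPM. Polh, the translesion polymerase that acts at A and T bases in hypermutation, fell by 1.49 ± 0.05 from 113, 108 and 112 CPM to 39.3, 39.8 and 39.5 CPM. In both the groups lay far apart.

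Recombination and Fanconi genes are known to be expressed mostly in dividing cells, so markers of the cycle are given beside them. Among 32 S phase genes 18 were called higher and 7 lower (78.1% called, against 75.9% of all tested genes, median 0.12). Their summed level was 10453 to 10556 CPM in DN and 11907 to 11933 CPM in DP. All tested genes together also summed higher in DP, at 933546 to 935102 CPM in DN and 1062733 to 1079967 CPM in DP. A higher sum is thus not particular to the S phase genes. Among 51 genes of G2 and M phase 12 were called higher and 27 lower (76.5% called, median -0.08). Their summed level was 31061 to 32354 CPM in DN and 25570 to 26734 CPM in DP. None of either list changed by 2-fold. The defining germinal centre B cell markers were present in both subsets, and 11 of 12 were lower in DP, summing to 5095 to 5227 CPM in DN and 1778 to 1846 CPM in DP. Erythroid markers fell in 6 of 6 tested genes of 9 listed (62.1 to 72.5 CPM in sum in DN, 15.9 to 18.3 CPM in DP), and macrophage markers in 6 of 7 tested of 12 listed, with 1 higher (26.0 to 29.1 and 12.9 to 14.5 CPM), with Cd14 at 0 in every library. Naive B cell markers fell in 6 of 7 tested genes of 8 and rose in 1 (608 to 616 and 251 to 265 CPM). Of 7 plasma cell markers 3 rose and 2 fell (599 to 622 and 392 to 407 CPM), and of 10 T cell markers 3 were tested, with 2 higher and 1 lower (52.1 to 59.8 and 63.5 to 65.6 CPM, most of it Lck). The part of these cycle and cell type markers in the changes of the repair genes was not tested.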

How the data were processed

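Polyadenylated RNA was sequenced from 6 libraries, 3 DN and 3 DP, all with the same batch label, and libraries were grouped by title. The deposited values are raw read counts per gene, with 1 table per library, and 5 summary rows that name no gene (9.47% to 12.9% of all counts) were left out. STAR 2.7.10a, HTSeq 0.13.5, Trim Galore 0.6.6 and the build mm10 are named per the submitters' processing notes. The kit was a stranded one per the labels' protocols. How strand was set in counting, the other settings, the annotation release and any use of molecular identifiers were not given in the sources used here. Had strand been ignored, reads of overlapping genes on opposite strands would be merged or dropped; 24 of the 51 genes share exon bases with another gene.

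DP was compared with DN by edgeR 4.0.16 in R 4.3.3 (quasi-likelihood, robust, TMM, filterByExpr with a minimum count of 10, no replicate block). Standard errors come from the fitted change and its F statistic. CPM use TMM-scaled library sizes, with 3 counts worth 0.155 to 0.315 CPM (counting error only). Per-library medians add 0.5 to CPM before the log2. Exon lengths and positions come from GENCODE M21 for mm10, promoters from RefSeq. Within groups every pair of libraries differed beyond sampling noise (chi-square per degree of freedom 1.96 to 3.26), so all 6 were kept.

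The members and lists were chosen with earlier results of these data known. By rule, values of every library go to the 3 genes of smallest p in each role group, and up to 2 genes in each direction are named from the other lists; further genes shown library by library (Prkdc, Xrcc4 and Polq) were chosen after their values were seen. The fit was first tested on simulated data, with 50 changed genes at each fold. It recovered 4% of 1.1-fold, 50% of 1.2-fold, 74% of 1.5-fold and 94% of 2-fold changes. Of its calls 3.48% were false. A gene that was not called may thus still differ by a small fold. Other settings tried were library totals alone, upper-quartile and DESeq2 size factors, no filter or a stricter one, DESeq2 1.42.0, limma-voom (limma 3.58.1), a replicate block, a threshold of 0.01, a test against 1.5-fold, thinned DP libraries, GC and length trends removed, and each library left out.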

Additional observations from a re-analysis of the deposited data

How the results depend on the processing

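Of the 38 called genes, 30 kept direction and call under every other scaling, filter, tool, block, depth and left-out library; the others were Bard1, Brca2, Chek2, Mdc1, Palb2, Rad54l, Rif1 and Rnf168. The cause of the shifts below was not tested. Among genes called in either fit, signs turned for Mdc1 (-0.11), Rif1 (-0.04), Rad50 (-0.16) and Rad51ap1 (-0.17) with library totals alone, and for Atm (0.15) with GC and length trends removed, where Brca2 came to 0.00. Genes called in neither fit also changed sign, among them Chek1 (-0.14), Rad51d (-0.15), Rad52 (-0.16) and Fancb (-0.14) with library totals alone, and Rad51d (-0.07), Rnf8 (0.02) and Rad54b (0.06) with GC and length trends removed; uncalled genes near 0 also did so under other settings. Tested against a minimum fold of 1.5, 4 repair genes were higher (Atr, Lig3, Xrcc5, Xrcc6) and 5 lower (Fancm, Hmces, Lig4, Slx4, Xrcc1), and 1964 and 1912 of all genes. With library totals alone the median changes were -0.06 for damage kinases, -0.11 for break-site adaptors, 0.04 for MRN and resection, -0.40 for BRCA mediators, -0.15 for recombinase paralogues and partners, -0.32 for junction enzymes, -0.29 for Fanconi genes, -0.52 for classical end joining, 0.01 for alternative end joining and -0.16 for homologous recombination. With GC and length trends removed they were -0.09 for BRCA mediators, -0.19 for classical end joining and 0.14 for alternative end joining. With no filter they were 0.31 for MRN and resection, -0.05 for junction enzymes, 0.28 for alternative end joining and 0.11 for homologous recombination. The MRN and alternative end joining medians were 0.18 and 0.16 with the stricter filter and 0.20 and 0.18 with upper-quartile factors. Leaving out 1 library gave 0.02 to 0.20 for recombinase paralogues and partners (0.20 without DN replicate 3) and -0.40 to -0.22 for classical end joining (-0.22 without DN replicate 3), and 19 to 21 genes higher and 16 to 17 lower. With the longest transcript as length, the Xrcc6 to Xrcc5 ratio was 2.26 in DN and 2.01 in DP, Lig3 to Xrcc1 0.0424 and 0.232, and Lig4 to Xrcc4 in DP 0.473. With the replicate number as a block 21 repair genes were higher and 17 lower and no call changed; same-numbered libraries correlated at 0.056, -0.006 and -0.018 in their deviations from group means, and not every library correlated best with its own number, so the numbers were not taken to pair them. Genes under about 10 CPM, such as Nhej1, Rnf8, Rad52 and Rad51b, rest on few counts.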
